A study of Mus musculus with 6 samples.

Results

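The transcriptome of control N2A cells was described from 3 arrays, the control group of a series of 6 arrays. N2A (neuro 2A) is an established mouse neuroblastoma line that is widely used as a model of neural differentiation. The cells were kept in medium with 10% serum, received 1.5 ug of a non-targeting shRNA vector by transient transfection, and gave total RNA 2.5 days later. All 3 arrays therefore share the vector and the transfection, so the values are levels in transfected cultures and not in untreated cells. For each array 200 ng RNA was labelled and hybridised to an Affymetrix Mouse Gene 1.0 ST array. The series describes its replicates as biological, without saying which cultures or days they came from. The group was chosen by its labels alone and not by any measured value. No comparison with the other arrays was made, and with a single group there is no test.

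Neuroblastoma arises from the sympathoadrenal lineage of the neural crest, the source of sympathetic neurons and adrenal chromaffin cells. A small set of transcription factors, among them HAND, GATA and ISL proteins, sets up this lineage, and MYC family proteins drive its growth in tumours. Cells of the lineage make and store catecholamines, which are packed with granins into dense-core granules.

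The level of a gene is its mean log2 value over the 3 arrays. Each of 19938 genes is represented by its probe set of highest mean, and its percentile gives its place among them. Levels ranged from 3.14 to 14.60 with a median of 8.38. Probe sets also differ in how strongly their probes bind, so ranks between genes are approximate. To mark a low level, the 1015 olfactory receptor genes, which serve odour detection in the nose, were used as a reference. Their 95th percentile was 7.13, 7.15 and 7.29 on control replicates 1, 2 and 3, and a gene is called above the reference if it exceeded that value on every array. This held for 13162 genes, or 66.0% of those measured, and 10042 genes (50.4%) were above it by more than 1 log2 unit on every array. The reference is lenient, and whether the base composition of its probes lowers it was not tested. In the vomeronasal receptor family, 0 of 163 genes were above it.

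**Figure D1:**
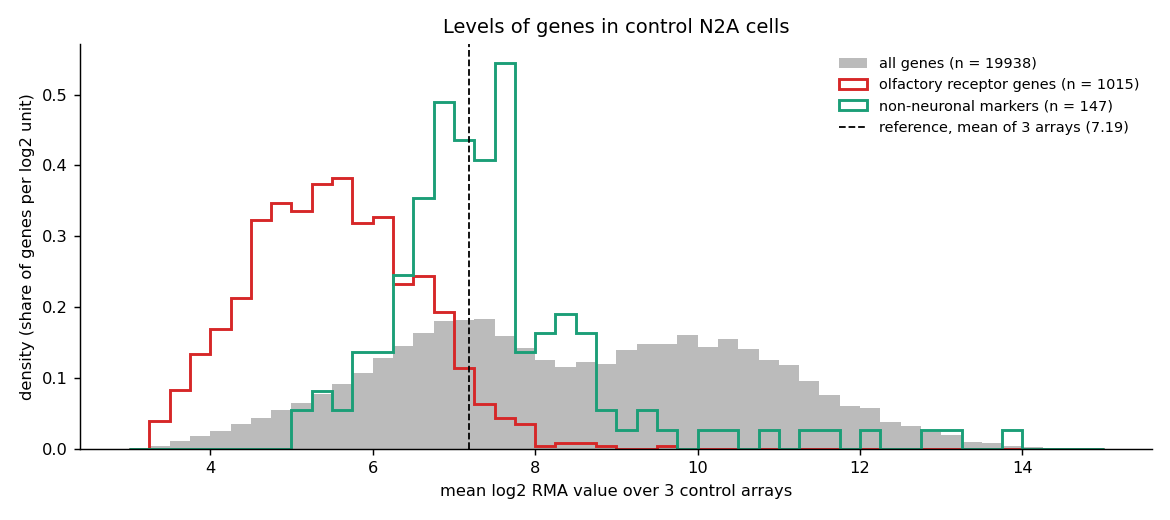
Distribution of gene levels in control N2A cells. The horizontal axis is the mean log2 RMA value over 3 control arrays and the vertical axis the density of genes, for all 19938 genes (grey), 1015 olfactory receptor genes (red) and 147 non-neuronal marker genes (green), with the mean reference of the 3 arrays (7.19) as a dashed line. All genes form a broad double hump on both sides of the reference, the receptor genes lie mostly to its left, and the non-neuronal markers gather around it.

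Control replicate 3 stood apart from the others. Pearson correlations across genes, which are not independent replicates, were 0.9971 between replicates 1 and 2, 0.9943 between 1 and 3, and 0.9931 between 2 and 3. Of genes above the reference, 4 lay over 1 log2 unit apart between replicates 1 and 2, against 38 between 1 and 3 and 85 between 2 and 3. For some of the genes and counts that rest most on replicate 3, values without it are given below. An SD without an array is over 2 arrays, so it is not on equal terms with an SD over 3. Leaving out the array farthest from the others lowers the SD by construction.

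The neuroblastoma genes were mostly at high levels. Of 71 genes on the lists of lineage factors and tumour-associated genes, 61 (85.9%) were above the reference, beside 66.0% of all genes, and 50 (70.4%) by over 1 log2 unit, beside 50.4%. Of 31 sympathoadrenal and neuroblastoma transcription factors, 28 were above the reference, with a median level at percentile 75.1. Hand2, a basic helix-loop-helix factor of sympathetic neurons, measured 12.32, 12.17 and 12.23 on replicates 1, 2 and 3. Gata2, a zinc finger factor of the same lineage, measured 11.57, 11.79 and 11.55. Phox2a, a homeodomain factor that acts on noradrenergic genes, measured 10.71, 10.63 and 10.77. The SDs of Hand2, Gata2 and Phox2a were 0.08, 0.14 and 0.07 (n = 3), beside a median SD of 0.115 over genes above the reference.

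Of the MYC family, Myc was at 12.30 ± 0.09 (SD, n = 3, as for all values below), Mycn at 10.58 ± 0.11 and Mycl at 8.01 ± 0.05. Mycn is the member amplified in many human neuroblastomas. Isl1, a LIM homeodomain factor, was at 11.15 ± 0.27, and its value of 10.84 on replicate 3 was below the values of 11.34 and 11.27 on the others. The other factors at 10 or more were Pbx3 (12.37), Klf7 (12.12), Satb1 (11.54), Meis2 (11.50), Sox4 (10.76), Ebf3 (10.55), Insm1 (10.52), Foxp1 (10.51), Lmo1 (10.32) and Zfhx3 (10.20). Gata3 (9.92), Sox11 (9.57), Tbx2 (9.36), Meis1 (9.33) and Six3 (8.40) were lower and still over 1 unit above the reference. Hand1 (7.88), Tlx2 (7.77), Arnt2 (7.70), Klf13 (7.62), Lmo3 (7.56) and Sall4 (7.56) lay less than 1 unit above it, like Mycl. The 3 factors not above the reference were Tfap2b (6.81), Tfap2a (6.15) and Ebf1 (5.93).

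Among 40 tumour-associated growth and surface genes, 33 were above the reference. Ret, the receptor tyrosine kinase for GDNF family ligands, measured 13.19, 13.36 and 13.12, which placed it at percentile 99.3. Its co-receptors differed in level, with Gfra1 at 10.43 ± 0.28 and Gfra2 at 8.11 ± 0.11, while Gfra3 (7.13) and Gfra4 (7.22) were not above the reference. Alk, a receptor kinase mutated in familial neuroblastoma, was at 10.05 ± 0.10. The adhesion genes Ncam1 and L1cam were at 12.74 and 12.31, Ddx1, a helicase gene next to Mycn in the genome, at 12.61, and Prmt5, an arginine methyltransferase gene, at 12.40. Of the neurotrophin receptors, Ngfr was at 11.81, Ntrk3 at 9.52, and Ntrk2 at 6.26, which was the lowest level on this list. Epha7 (7.03) and St8sia1 (7.06) were also among its lowest. The largest SDs on the list were 0.33 for Ptn, 0.32 for Ntrk3 and 0.29 for Bard1.

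**Figure D2:**
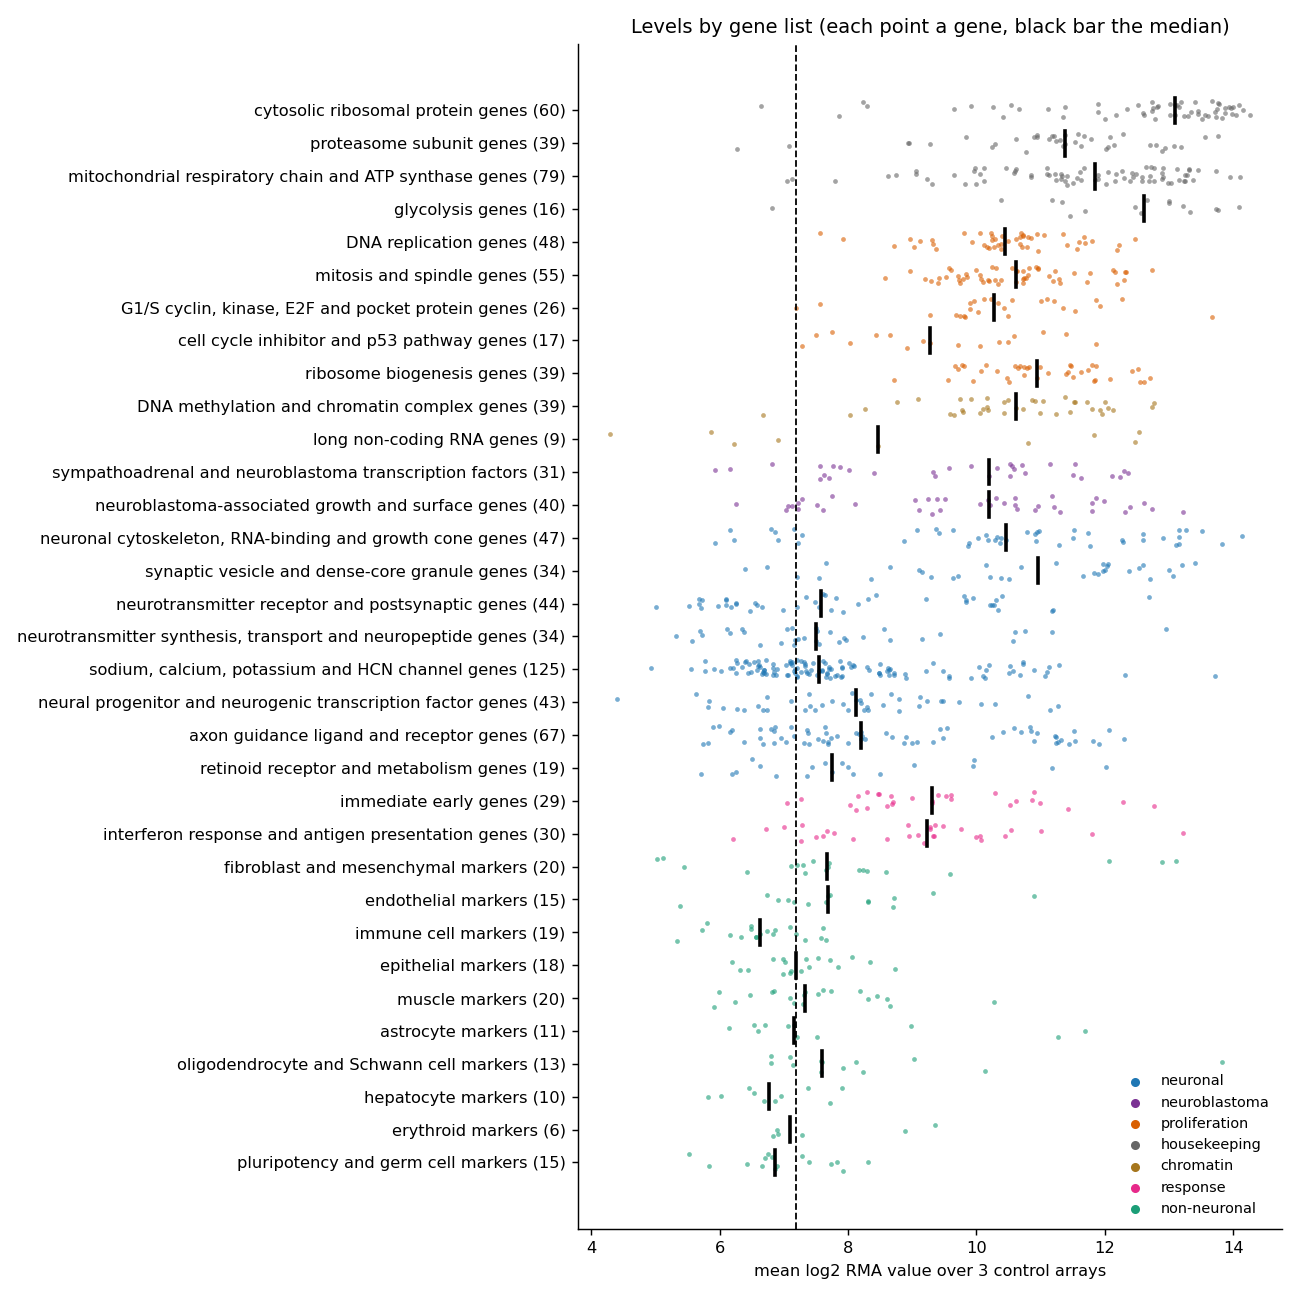
Levels of genes by list. Each point is a gene at its mean log2 RMA value over 3 control arrays (horizontal axis), each row a list with its number of measured genes, black bars are list medians and the dashed line is the mean reference (7.19). Ribosomal protein, glycolysis and respiratory chain genes lie farthest right, proliferation (apart from cell cycle inhibitors, at 9.28), lineage factor, cytoskeleton and vesicle genes have medians above 10, and channel, receptor, transmitter and non-neuronal lists have medians near the reference.

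Neuronal genes as a whole were above the reference about as often as all genes. Of 413 genes on 8 lists, 278 (67.3%) were above it, beside 66.0% of all genes, and 180 (43.6%) were above it by over 1 unit, beside 50.4%. These lists take in whole families, such as channel and retinoid genes, so the shares are not those of genes particular to neurons. The lists differed widely. Cytoskeleton and vesicle genes had median levels of 10.46 and 10.96, whereas transmitter, channel and postsynaptic genes had medians of 7.50, 7.54 and 7.58.

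Of 47 neuronal cytoskeleton, RNA-binding and growth cone genes, 38 were above the reference, and each of those was above it by over 1 unit. Tuba1a, a neuronal alpha-tubulin, was at 14.14 ± 0.06 and ranked 10th of all genes. Map1b, a microtubule-associated protein, was at 13.83 ± 0.05. Stmn2, a tubulin-binding protein of growth cones, measured 13.47, 13.52 and 13.55. Stmn1 was at 13.27 and Dpysl3 at 13.16. Stmn3 was at 13.15 on the probe set used and at 6.40 on its other probe set.

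The intermediate filament genes of neurons were split. Prph, the peripheral neuron filament peripherin, measured 13.14, 13.12 and 13.21, Ina (alpha-internexin) was at 12.28 ± 0.05, and Nefh, the heavy neurofilament subunit, at 10.19 ± 0.15. Nefl, the light subunit, measured 6.23, 6.29 and 6.14, and Nefm, the medium subunit, 5.90, 5.88 and 5.98. Both of these lay below the reference on every array, and Nefm had the lowest level on the list. Other members not above the reference were Dcx (6.86 ± 0.30), a microtubule protein of migrating young neurons, Rbfox3 (7.27 ± 0.17), which encodes the mature neuron antigen NeuN, Cntn2 (7.23), Kif1a (7.15), Rtn1 (6.91), Fez1 (6.79) and Cntn1 (6.17). The largest SDs were 0.47 for Nsg1, 0.30 for Dcx and 0.27 for Dpysl2.

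Of 34 synaptic vesicle and dense-core granule genes, 31 were above the reference and 16 were in the top 10% of all genes. Chgb and Chga, the granins that form the core of secretory granules, measured 13.32, 13.41 and 13.48 and 13.10, 13.25 and 13.24 on the 3 arrays. The SNARE gene Snap25 was at 13.07 ± 0.06, the calcium sensor Syt1 at 13.00 ± 0.10 and the vesicle glycoprotein Sv2c at 12.70 ± 0.15. The prohormone convertase Pcsk1 was at 6.39 ± 0.12 and was not above the reference, although its inhibitor Pcsk1n was at 12.60 ± 0.26. Pclo (6.74) and Rims1 (7.21), scaffold genes of the release site, were also not above it. Syn2, Rab3a and Vamp1 had the largest SDs, 0.30, 0.27 and 0.27.

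The cAMP response element TGACGTCA is a palindrome bound by CREB family factors. It was found in the 250 bases before the start of 4 of 28 promoters on this list (14.3%). The share was 2.12% of all 15614 promoters searched and 2.78% of those of genes above the reference. Other lists had similar shares, with 2 of 14 cell cycle inhibitor (14.3%), 5 of 48 ribosomal protein (10.4%) and 3 of 29 transmitter promoters (10.3%). Channel and proteasome promoters had 0 of 95 and 0 of 32. The vesicle genes with a match were Chgb, Scg2, Syn1 and Pcsk1, so the match was present both at high levels and below the reference. The 3 of highest level are shown from RefSeq (GRCm38.p6), with the match in capitals, because they let the element be seen in its place. Its first base lies at -72 from the start in Chgb (chr2:132781392-132781641, plus strand), at -68 in Scg2 (chr1:79440027-79440276, minus strand) and at -159 in Syn1 (chrX:20920919-20921168, minus strand). A match is a description of the letters and not a measured site.
Chgb: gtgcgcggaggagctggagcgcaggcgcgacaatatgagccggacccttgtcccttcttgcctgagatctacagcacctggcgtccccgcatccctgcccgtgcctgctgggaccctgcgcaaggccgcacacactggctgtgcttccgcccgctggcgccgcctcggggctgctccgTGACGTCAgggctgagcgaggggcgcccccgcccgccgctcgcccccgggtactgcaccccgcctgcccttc
Scg2: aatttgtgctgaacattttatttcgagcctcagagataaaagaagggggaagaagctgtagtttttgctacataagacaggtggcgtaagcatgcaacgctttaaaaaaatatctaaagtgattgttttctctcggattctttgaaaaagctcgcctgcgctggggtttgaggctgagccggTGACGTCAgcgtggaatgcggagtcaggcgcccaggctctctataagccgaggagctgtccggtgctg
Syn1: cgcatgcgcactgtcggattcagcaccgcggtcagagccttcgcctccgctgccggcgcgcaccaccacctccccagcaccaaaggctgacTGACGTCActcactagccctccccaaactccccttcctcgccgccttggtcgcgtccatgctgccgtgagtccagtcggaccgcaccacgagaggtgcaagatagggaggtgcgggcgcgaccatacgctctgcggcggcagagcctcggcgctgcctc

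Transmitter identity was uneven. Of 34 genes for transmitter synthesis, transport and neuropeptides, 20 (58.8%) were above the reference, beside 66.0% of all genes. By over 1 unit there were 8 (23.5%), beside 50.4%. Slc18a2, the vesicular monoamine transporter, measured 12.73, 13.07 and 13.05 and was the only member in the top 10% of all genes. Ache, which breaks down acetylcholine, was at 11.18 ± 0.21, and Gch1, which makes the cofactor of tyrosine hydroxylase, at 10.60 ± 0.20. Several genes of catecholamine neurons had large spreads. The neuropeptide gene Npy measured 10.03, 10.51 and 11.72 (SD 0.87). Dbh, which converts dopamine to noradrenaline, measured 10.41, 9.89 and 11.42 (SD 0.78). Th, the rate-limiting enzyme of catecholamine synthesis, measured 9.55, 9.42 and 8.50 (SD 0.57). Replicate 3 was thus the highest array for Npy and Dbh and the lowest for Th, and without it the SDs were 0.34, 0.37 and 0.09. Tph1, an enzyme of serotonin synthesis, measured 8.89, 9.16 and 7.64 (SD 0.82), again lowest on replicate 3, and its SD was 0.19 without that array.

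Ddc, the next enzyme of catecholamine synthesis, was at 7.71 ± 0.21 and thus less than 1 unit above the reference. The noradrenaline transporter gene Slc6a2 (7.18), Pnmt, which makes adrenaline (7.05), and Chat, which makes acetylcholine (7.12), were not above it. The lowest levels of the list were those of Tac1 (5.32), Maob (5.57) and Maoa (5.69). The GABA synthesis genes Gad1 and Gad2 were at 7.50 and 6.38, and the glutamate transporter genes Slc17a7 and Slc17a6 at 7.55 and 6.11.

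Among receptors and channels, a few genes stood well above the rest of their lists. Chrna3, the nicotinic receptor subunit of autonomic ganglia, measured 12.54, 12.68 and 12.87, beside a median level of 7.58 for its list of 44 genes. Of those, 24 (54.5%) were above the reference, beside 66.0% of all genes. Chrnb2 (10.20) and Chrna7 (9.84) were also over 1 unit above it, and Chrnb4 (7.92) and Chrna4 (7.73) by less. Chrna5 measured 8.08, 8.54 and 6.83, and its SD of 0.89 was the largest on the neuronal lists. It was above the reference on replicates 1 and 2 and below it on replicate 3, without which its SD was 0.33. The other high levels on the list were those of Dlg4 (11.19 ± 0.39), the scaffold PSD-95, the GABA-B receptor gene Gabbr1 (11.18), the AMPA receptor gene Gria2 (10.39) and Nrxn2 (10.34). Camk2a, a postsynaptic kinase, was at 9.94 ± 0.46. Glra2 (5.01), Gabrb1 (5.52) and Grik1 (5.67) were lowest.

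Of 125 sodium, calcium, potassium and HCN channel genes, 73 (58.4%) were above the reference, beside 66.0% of all genes. By over 1 unit there were 37 (29.6%), beside 50.4%. Cacng3, an auxiliary subunit of AMPA receptors named for its likeness to calcium channel subunits, measured 12.20, 12.24 and 12.49. The N-type calcium channel gene Cacna1b was at 11.29, Cacng7 at 11.13 and the sodium channel gene Scn3b at 11.10. Kcnma1, the large-conductance potassium channel gene, was at 13.72 on the probe set used and at 9.14 on its other probe set, so its rank rests on that choice. Kcnt2 (4.93), Cacna2d1 (5.55) and Scn7a (5.77) were lowest. The sodium channel gene Scn1a measured 7.38, 7.60 and 6.41, with the largest SD on the list (0.63, and 0.15 without replicate 3), followed by Kcnab3 (0.49) and Scn7a (0.41).

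The POU family includes Pou3f3, the neighbour of the long non-coding RNA Dali that the series is about. Pou3f3 measured 8.02, 8.06 and 8.28, which placed it at percentile 46.9 and 0.88 units above the reference on its nearest array. Pou3f1 measured 8.53, 8.46 and 8.65. Pou3f4 (6.67 ± 0.20) was not above the reference. Pou3f2 measured 7.10, 7.28 and 7.59 on the probe set used, below the reference on replicate 1 alone, and its other probe set was at 3.51. Of the other POU genes, Pou6f1 (8.75), Pou2f2 (8.18) and Pou4f1 (8.0) were above the reference, and Pou2f3 (7.25), Pou4f3 (7.12), Pou5f2 (7.11), Pou5f1 (6.43) and Pou5f1-rs4 (6.12) were not. Pantr1, a non-coding RNA gene, was at 5.86 ± 0.07 and not above the reference. Dali itself was not analysed here.

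Of 43 neural progenitor and neurogenic factor genes, 30 (69.8%) were above the reference, beside 66.0% of all genes. By over 1 unit there were 17 (39.5%), beside 50.4%, and none was in the top 10% of all genes. Sox9 (11.27 ± 0.25), the RNA-binding genes Msi2 (11.14) and Msi1 (10.80), Myt1 (10.28) and Id2 (10.07 ± 0.57) were highest. Of the SOX genes of neural stem cells, Sox3 (9.12) and Sox1 (9.10) were over 1 unit above the reference, but Sox2 measured 5.79, 5.76 and 5.95 and was below it on every array. Of the proneural genes, Neurod2 (7.91) and Neurog2 (7.48) were above it by less than 1 unit, and Neurog1 (7.12), Neurog3 (6.74), Neurod1 (5.82), Neurod4 (5.63) and Neurod6 (4.40) were not above it. Nes, the progenitor filament nestin, measured 7.99, 7.83 and 8.73 (SD 0.48, and 0.11 without replicate 3), and Prom1 had a similar SD, 0.48.

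In the 67 axon guidance genes, 49 (73.1%) were above the reference, beside 66.0% of all genes. By over 1 unit there were 29 (43.3%), beside 50.4%. The highest were the netrin receptor relative Neo1 (12.30), the ligand Slit2 (12.07), Plxnb2 (11.91), Unc5c (11.82) and Efna5 (11.53). The SLIT receptor genes Robo1 (6.95), Robo2 (6.67) and Robo3 (6.63) were not above the reference, nor was the netrin receptor Dcc (6.84). Epha6 (5.74), Sema3a (5.82) and Epha5 (5.89) were lowest. Slit1, Nrp1 and Efna3 varied most, with SDs of 0.49, 0.48 and 0.45. Of 19 retinoid receptor and metabolism genes, 13 (68.4%) were above the reference, beside 66.0% of all genes. Rdh11 (12.01), the retinol transporter Stra6 (11.18), Rxrb (9.96), Rara (9.95) and Rdh10 (9.03) were highest, and Stra8 (5.70), Rxrg (6.19) and Aldh1a2 (6.25) lowest. Of the receptors themselves, Rarg was at 8.50 and Rarb, a retinoic acid target, at 6.88, which was not above the reference. Aldh1a2, Aldh1a1 and Stra6 had the largest SDs, 0.25, 0.21 and 0.17.

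**Figure D3:**
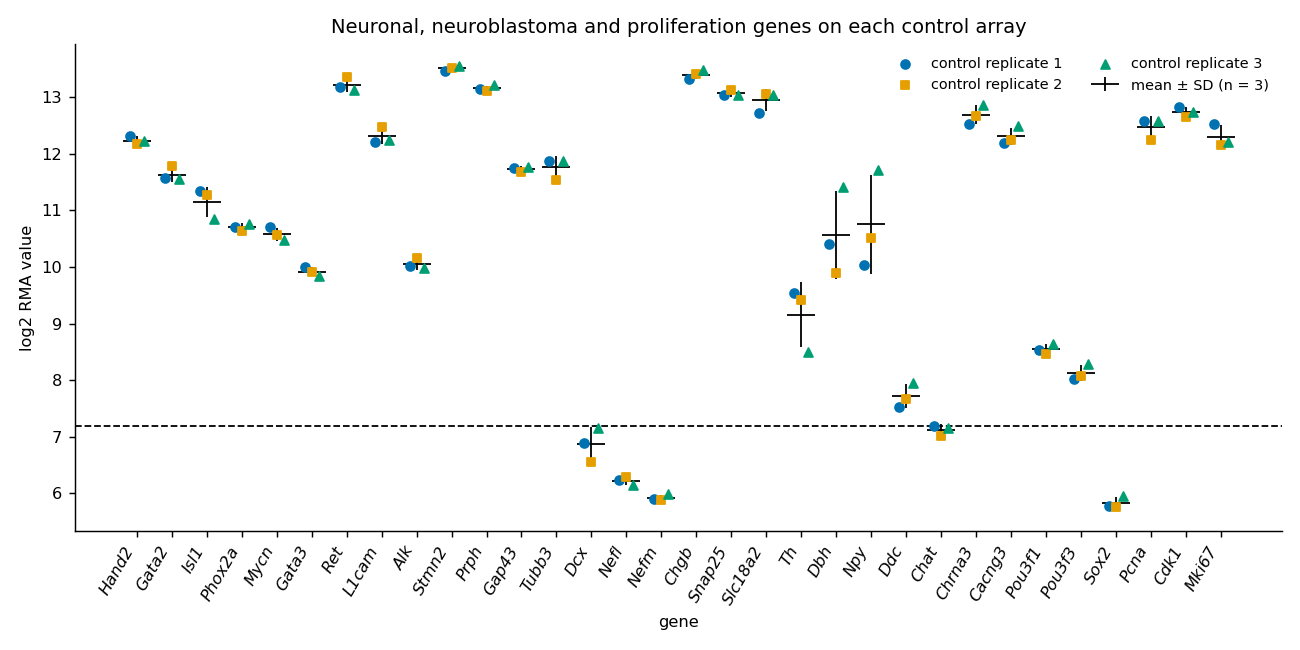
Log2 RMA values (vertical axis) of neuronal, neuroblastoma and proliferation genes (horizontal axis) on each control array, with symbols for replicates 1, 2 and 3, black bars for the mean ± SD (n = 3) and a dashed line at the mean reference (7.19). Most symbols of a gene coincide, Th, Dbh and Npy are spread over more than 1 unit, and Dcx, Nefl, Nefm, Chat and Sox2 have means below the line.

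Proliferation genes were nearly all above the reference. Of 185 genes on 5 lists, 183 (98.9%) were above it and 177 (95.7%) by over 1 unit, beside 66.0% and 50.4% of all genes. All 48 DNA replication genes, all 55 mitosis and spindle genes and all 39 ribosome biogenesis genes measured were above it. Pcna, the sliding clamp of DNA polymerases, measured 12.59, 12.25 and 12.58, and Cdk1, the kinase that drives entry into mitosis, 12.83, 12.65 and 12.75. Pold2 (12.21), Rrm1 (12.19), Mcm7 (11.80) and Rfc5 (11.68) followed Pcna on the replication list, and Ccna2 (12.33), Mad2l1 (12.32), Mki67 (12.30) and Ccnb2 (12.18) followed Cdk1 on the mitosis list. The lowest were Gmnn (7.55), an inhibitor of origin licensing, Orc1 (7.92) and Cdc6 (8.71), and on the mitosis list Spc24 (8.57), Cdc25c (8.96) and Melk (9.20). Ribosome biogenesis was led by Nop56 (12.71), Nop16 (12.62), Utp4 (12.55), Ncl (12.51) and Npm1 (12.42), with Rrs1 (8.72), Rrp12 (9.56) and Rrp9 (9.66) lowest.

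Of 26 G1/S genes, Cdk6 (7.19 ± 0.13) was the only member not above the reference, and Ccnd2 (7.56) lay less than 1 unit above it. Cdk4, the partner kinase of D-type cyclins, was at 13.67 ± 0.11, Ccnd1 at 12.27, Cks1b at 11.92, Cks2 at 11.86 and Tfdp1 at 11.53. Rb1, the retinoblastoma protein gene, measured 10.19, 10.32 and 9.19 (SD 0.62), lowest on replicate 3, and its SD was 0.09 without that array. Of 17 cell cycle inhibitor and p53 pathway genes, 16 were above the reference. Cdkn1b, which encodes p27, was at 11.86 on the probe set used and at 8.88 on the other, Ccng1 was at 11.39, Mdm2 at 11.04, Sesn2 at 10.58 and Mdm4 at 10.49. Cdkn2a, whose products include p16 and p19ARF, was at 10.06 ± 0.15. Pmaip1 (7.27), Trp73 (7.49) and Cdkn2b (7.74) were lowest, and Pmaip1 was not above the reference. Trp53, Cdkn1a and Bax were not analysed here.

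E2F factors control many replication genes. A match to either of the E2F letter strings TTTGGCGC and TTTCCCGC, on either strand, was found in 7 of 40 replication gene promoters (17.5%). The share was 1.93% of all promoters and 2.55% of those of genes above the reference. It was 4 of 46 for mitosis (8.70%), 3 of 19 for G1/S (15.8%), 3 of 24 for interferon (12.5%) and 3 of 33 for ribosome biogenesis promoters (9.09%). Ribosomal protein and transmitter promoters had 0 of 48 and 0 of 29. The replication genes with a match were Mcm5, Mcm6, Mcm7, Orc3, Cdc6, Gins3 and Pola1. Mcm7 (chr5:138171884-138172133, minus strand, first base at -165) and Orc3 (chr4:34614943-34615192, minus strand, first base at -41) are shown as the matched genes of highest level, with the match in capitals. Matches to different strings may share bases.
Mcm7: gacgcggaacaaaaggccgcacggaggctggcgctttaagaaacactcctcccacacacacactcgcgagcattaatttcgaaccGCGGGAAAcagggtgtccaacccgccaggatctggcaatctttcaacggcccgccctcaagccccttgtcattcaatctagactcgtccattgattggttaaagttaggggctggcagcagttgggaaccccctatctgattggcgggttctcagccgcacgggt
Orc3: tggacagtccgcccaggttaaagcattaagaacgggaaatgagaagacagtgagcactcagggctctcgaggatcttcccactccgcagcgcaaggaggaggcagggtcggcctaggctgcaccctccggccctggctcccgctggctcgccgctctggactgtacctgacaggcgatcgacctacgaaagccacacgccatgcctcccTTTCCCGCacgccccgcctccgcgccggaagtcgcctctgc

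The genes of highest level served translation, metabolism and the cytoskeleton. The highest was Baiap2l1, an actin and membrane adaptor, at 14.60, though its other probe sets were at 13.10 and 12.42. It was followed by the small nuclear RNA Rn7sk (14.60), the elongation factor Eef1a1 (14.46), Actb (14.36) and the ribosomal protein Rpl10 (14.27). Asns, which makes asparagine, ranked 6th at 14.18 ± 0.04. The next were Rplp0, Got2, Txn1, Tuba1a, Atp5b, Eef2, Rps6, Hspa8, Ldha, Vim, Lgals1, Rpl21, Scd2 and Slc3a2, between 14.16 and 14.02. Of 60 cytosolic ribosomal protein genes, 49 were in the top 10%, and their median SD of 0.05 was the smallest of the lists for growth and metabolism. Many of these genes have near-identical pseudogenes, so a probe set may read more than its own gene, which was not tested. The lowest of the list were Rpl3l (6.64), Rpl10l (7.85) and Rps4l (8.23), which are paralogues of widely used members. The list's median of 13.09 fell to 11.24 over the 20 members with a single probe set. Rpl3l and Rpl10l are among those 20, so the subset also differs in which genes it holds. The largest SDs were those of Rpl22 (0.33), Rps27l (0.23) and Rps4l (0.23).

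Of 79 respiratory chain and ATP synthase genes, 77 were above the reference, with Atp5b (14.11), Atp5d (13.95), Cox6c (13.73), Atp5c1 (13.46) and Atp5g2 (13.37) highest. The members not above it were Cox8b (7.04), a muscle isoform, and Cox6b2 (7.13), a testis isoform. Of 39 proteasome genes, 37 were above the reference, led by Psmb3 (13.76) and Psmb5 (13.56), and those not above it were Psma8 (6.27), a testis subunit, and Psmb11 (7.07), a thymus subunit. Glycolysis genes had a median level of 12.61, with Ldha at 14.08, Hk1 at 13.76 on the probe set used and 11.81 on the other, Aldoa at 13.74, the neuronal glucose transporter Slc2a3 at 13.33 and Pgk1 at 13.22. Ldhb, the partner of Ldha in lactate dehydrogenase, was at 6.82 ± 0.23 and was the only glycolysis gene not above the reference. Aldoc varied most (11.70 ± 0.58).

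A list of 29 amino acid supply and ATF4 response genes was drawn up after Asns was seen among the highest levels, so its counts only describe it. Of these, 28 were above the reference and 21 in the top 10%. The amino acid transporter subunits Slc3a2 and Slc7a5 were at 14.02 and 13.89, the serine synthesis gene Psat1 at 13.28, the tRNA synthetase genes Sars and Gars at 13.22 and 13.13, Chac1, which degrades glutathione, at 12.42 and Atf4 itself at 11.59. Vldlr (6.62) was not above the reference. TGATGNAA, letters shared by C/EBP-ATF response elements and also chosen after the levels were seen, was found on either strand in 6 of 22 promoters on this list (27.3%), beside 2.77% of all promoters. The genes were Asns, Gars, Chac1, Slc7a11, Nupr1 and Fgf21. The 3 of highest level are shown with the match in capitals, at -23 in Asns (chr6:7693210-7693459, minus strand), -30 in Gars (chr6:55037751-55038000, plus strand) and -193 in Chac1 (chr2:119350992-119351241, plus strand).
Asns: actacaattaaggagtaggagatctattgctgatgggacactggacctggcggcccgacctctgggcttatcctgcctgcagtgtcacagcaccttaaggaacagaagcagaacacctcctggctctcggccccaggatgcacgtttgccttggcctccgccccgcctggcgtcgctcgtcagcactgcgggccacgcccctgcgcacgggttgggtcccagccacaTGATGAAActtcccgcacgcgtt
Gars: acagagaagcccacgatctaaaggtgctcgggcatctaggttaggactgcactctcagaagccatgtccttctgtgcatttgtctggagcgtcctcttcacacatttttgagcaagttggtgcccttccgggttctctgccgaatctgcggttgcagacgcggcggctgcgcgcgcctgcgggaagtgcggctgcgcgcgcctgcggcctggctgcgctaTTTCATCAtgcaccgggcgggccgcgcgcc
Chac1: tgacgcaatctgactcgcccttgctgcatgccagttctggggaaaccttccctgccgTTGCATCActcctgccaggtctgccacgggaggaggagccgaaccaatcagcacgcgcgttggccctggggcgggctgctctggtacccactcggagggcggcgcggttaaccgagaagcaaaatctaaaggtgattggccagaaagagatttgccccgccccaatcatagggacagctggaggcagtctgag

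Sequence before the start site varied with level across all genes. The 15614 genes with a RefSeq window (78.3% of those measured) were put in 10 equal groups by level. The median number of CpG dinucleotides in 250 bases was 1 in the lowest group and 18 in the highest, and promoters with no CpG made up 29.9% of the lowest group and 0.448% of the highest. Median GC content was 39.2% in the lowest group and 61.6% in the highest, and the shares of short strings were not adjusted for it. TATAAA, the core of the TATA box, was found anywhere in the window on either strand in 30.2% and 6.40% of these groups. The GC box GGGCGG was found in 9.80% and 65.4% of these groups. CCAAT differed little between them (37.6% and 37.1%), and the ETS core CCGGAAG was found in 1.73% and 16.0%. Olfactory receptor promoters had a median GC content of 33.6%, beside 56.4% over all promoters, and GC content of the probes was not measured here. No CpG was found in 44.4% of olfactory receptor promoters, and the groups were not compared without that family. Eef1a1 (chr9:78481725-78481974, minus strand), the highest gene with a window and a single probe set, is shown as an example with 18 CpG dinucleotides. Olfr1251 (chr2:89667885-89668134, minus strand), at 3.28 and chosen among olfactory receptor genes, is shown as an example with 0. Capitals mark CpG.
Eef1a1: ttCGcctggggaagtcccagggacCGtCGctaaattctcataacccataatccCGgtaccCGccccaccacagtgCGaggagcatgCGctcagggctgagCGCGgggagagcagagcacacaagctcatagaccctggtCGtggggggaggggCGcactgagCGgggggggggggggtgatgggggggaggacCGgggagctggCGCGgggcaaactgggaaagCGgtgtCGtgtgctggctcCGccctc
Olfr1251: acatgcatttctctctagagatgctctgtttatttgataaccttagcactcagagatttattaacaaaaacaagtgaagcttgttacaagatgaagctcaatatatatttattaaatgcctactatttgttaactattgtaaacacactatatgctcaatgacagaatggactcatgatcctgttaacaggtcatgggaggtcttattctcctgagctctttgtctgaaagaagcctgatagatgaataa

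Of 39 DNA methylation and chromatin complex genes, 38 were above the reference. The histone-binding genes Rbbp7 (12.77) and Rbbp4 (12.73), Gatad2b (12.12) and Kdm1a (12.06) were highest. Dnmt1, the maintenance DNA methyltransferase, was at 11.54 ± 0.18, Dnmt3a at 9.64, Dnmt3b at 8.03, and the germline cofactor Dnmt3l at 6.67, which was not above the reference. Tet3 (10.42) and Tet2 (10.11) were higher than Tet1 (8.27), on different probes. Hells and Uhrf1, which act with Dnmt1 at replicated DNA, had SDs of 0.39 and 0.23, and the SD of Rest was 0.23. Of 9 long non-coding RNA genes measured, Malat1 (12.53), Xist (12.46), Gas5 (11.83), Snhg5 (10.80) and Meg3 (8.46) were above the reference, and Rian (6.90), Airn (6.22), Pantr1 (5.86) and Dleu2 (4.29) were not.

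Of 29 immediate early genes, 28 were above the reference, with the ERK phosphatase genes Dusp6 (12.77) and Dusp4 (12.29), Jun (11.43), Jund (10.98) and Atf3 (10.89 ± 0.43) highest. Fos was at 8.03 and Fosl1 at 7.27, and Npas4, an activity-dependent neuronal factor, at 7.04, not above the reference. Of 30 interferon response and antigen presentation genes, 25 were above the reference. B2m (13.22), Tapbp (11.80), Stat2 (11.01), Nlrc5 (10.54 on the highest of 19 probe sets) and Tap2 (10.45) were highest, and Ifit3 (6.20), Ifit2 (6.73) and Ifih1 (7.0) lowest. Ddx58 had an SD of 0.75, Rsad2 of 0.58 and Oasl2 of 0.47.

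Markers of other cell types were mostly near the reference. Of 147 genes on 10 lists, 71 (48.3%) were above it, beside 66.0% of all genes, and 23 (15.6%) by over 1 unit, beside 50.4%. The count of 71 depends on the reference, and was 33 with the 99th percentile of olfactory receptor genes and 125 with vomeronasal receptor genes. Bulk RNA cannot tell fewer cells of a type from less RNA per cell. Immune, hepatocyte and pluripotency lists had 0 genes above the reference by over 1 unit. The defining immune gene Ptprc (CD45) was at 6.56, the albumin gene Alb at 5.82, Pou5f1 at 6.43, the endothelial cadherin Cdh5 at 7.37, the epithelial genes Cdh1 and Epcam at 6.99 and 7.02, and the astrocyte filament Gfap at 7.20. Of these, Cdh5 alone was above the reference. By whole list, 10 of 15 endothelial, 13 of 20 fibroblast and 9 of 13 oligodendrocyte and Schwann cell markers were above it. Their shares of 66.7%, 65.0% and 69.2% lay near the 66.0% of all genes. Muscle (11 of 20), erythroid (3 of 6), epithelial (8 of 18) and pluripotency (6 of 15) markers had lower shares. So did astrocyte (4 of 11), hepatocyte (3 of 10) and immune (4 of 19) markers.

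The 23 genes over 1 unit above the reference were not spread evenly. Pmp22, a peripheral myelin protein, had the highest level, 13.83 ± 0.20, whereas Sox10, which specifies Schwann cells, was at 7.91 and Mog, a central myelin protein, at 7.14. The matrix genes Fbln1 (13.10 ± 0.04), Fn1 (12.89 ± 0.05) and Fbln2 (12.06 ± 0.19) were high, beside Col1a1 at 8.58 and Col1a2 at 8.30, and Dcn at 7.30, Postn at 5.44 and Lum at 5.02. Pdgfrb, a receptor of pericytes and fibroblasts, measured 9.66, 10.45 and 8.64 (SD 0.91, and 0.56 without replicate 3). The others were Egfl7 (10.90), Ramp2 (9.33) and Vwf (8.70) of endothelium, Krt8 (8.73) and Cldn3 (8.35) of epithelium, Myh3 (10.27), Acta1 (8.65), Tnnt2 (8.61) and Tnnt3 (8.45) of muscle, Aldoc (11.70), Sox9 (11.27) and Fgfr3 (8.98) of astrocytes, Cnp (10.13) and Erbb3 (9.03) of myelinating cells, and Tal1 (9.35) and Epor (8.89) of erythroid cells. Vim, the mesenchymal filament that many cultured lines express, was at 14.07 ± 0.03, 16th of all genes.

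The spread between replicates was small for most genes. The median SD was 0.112 over all genes and 0.115 over genes above the reference, and 95% of the latter had an SD of at most 0.302. Without replicate 3 the median for genes above the reference was 0.0664, and it was 0.113 and 0.108 without replicates 1 and 2. By level, the median SD was 0.102 below 6, 0.123 between 8 and 10, and 0.0866 at 12 or more. Rpl34, Rpl10 and Actb had SDs of 0.0022, 0.0086 and 0.0093, and median SDs of proteasome, respiratory chain and ribosome biogenesis genes were 0.08, 0.08 and 0.09.

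Of 13162 genes above the reference, 104 had an SD over 0.5. Replicate 3 was the lowest array for 89 of them, beside 37.4% of all genes above the reference. Replicate 2 was the highest for 80, beside 27.4%. An SD of at most 0.5 was found for 88 without replicate 3, 29 without replicate 2 and 2 without replicate 1. As the 104 were picked for a large SD, a fall on leaving out their outlying array was bound to occur. Mr1, an antigen-presenting molecule of the MHC class I family, measured 10.75, 11.42 and 8.95 and had the largest SD, 1.28. It was followed by the pancreatic polypeptide gene Ppy (1.07), Elapor1 (1.07), Gca (1.04) and Ifitm3 (0.92). This order rests on replicate 3, since without it the SDs of Mr1, Ppy, Elapor1, Gca and Ifitm3 were 0.47, 1.05, 0.61, 0.13 and 0.35. D630029K05Rik, Prokr2, Clu, Pdgfrb, Cd82, Slc47a1, Npy, Gstm1, Lipa, Ppm1j, Usp44, Ace, Npnt, Insl6 and Tph1 completed the 20 largest, with SDs of 0.91 to 0.82. Npy was the only gene of these 20 that was highest on replicate 3, and the other 19 were lowest on it. Among the genes listed after Ifitm3, SDs without replicate 3 ranged from 0.19 for Tph1 to 0.77 for Clu. The SD of Ppy was 0.41 without replicate 2, on which it was highest.

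**Figure D4:**
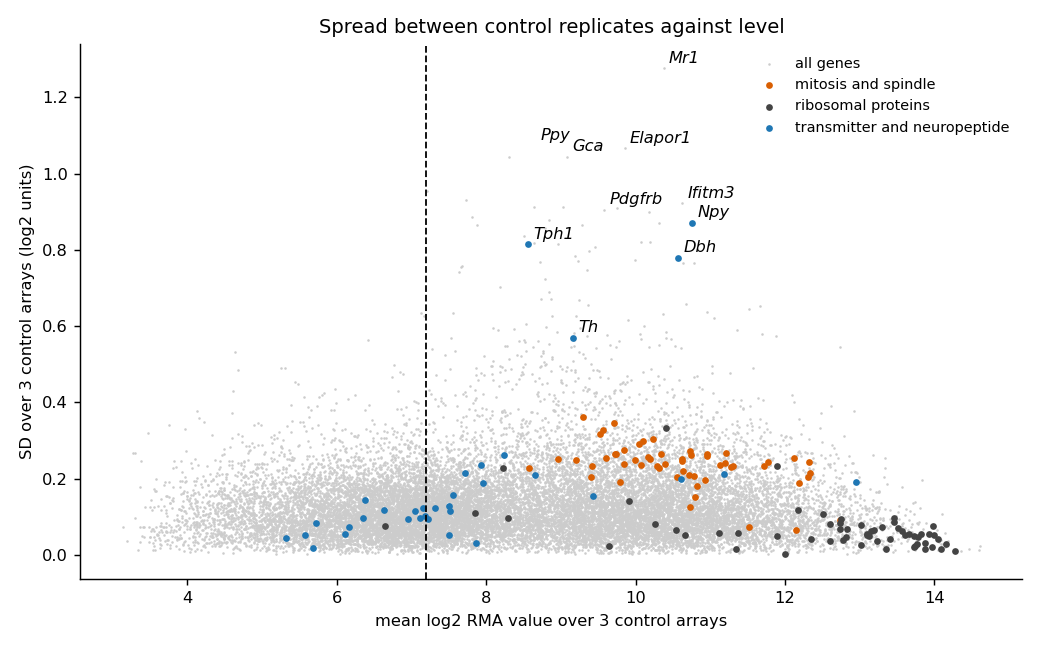
Spread against level in control N2A cells. The horizontal axis is the mean log2 RMA value and the vertical axis the SD over 3 control arrays in log2 units, with all genes in grey, 55 mitosis genes in orange, 60 ribosomal protein genes in black and 34 transmitter genes in blue, and the mean reference as a dashed line. Mitosis genes form a band around an SD of 0.24, most ribosomal protein genes lie under 0.1, and Npy, Dbh, Tph1 and Th stand out among transmitter genes.

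Cell cycle genes varied together between the replicates. The median SD was 0.241 for mitosis genes and 0.235 for replication genes, about 2.13 and 2.06 times that of the 500 genes nearest in level. Replicate 1 was the highest array for 52 of 55 mitosis genes, beside 26.2% of all genes, and replicate 2 the lowest for 47, beside 36.9%. Replicate 2 was also the lowest array for 43 of 48 replication genes. The median distance of a mitosis gene from its own mean was 0.26 on replicate 1, -0.19 on replicate 2 and -0.03 on replicate 3, and that of a replication gene was 0.13, -0.24 and 0.12. Without replicate 1 the median SD of mitosis genes was 0.105, and without replicate 2 that of replication genes was 0.0682. The most variable were Cenph (0.36), Cenpe (0.34) and Kif18a (0.33) among mitosis genes and Mcm4 (0.46), Tyms (0.44) and Pola1 (0.36) among replication genes. Hells and Uhrf1, named above, were lowest on replicate 2 as well. The pattern was not confined to cell cycle genes, as replicate 2 was also the lowest array for 30 of 39 ribosome biogenesis genes, 25 of 39 proteasome genes and 25 of 39 chromatin genes.

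For some other lists replicate 3 was the array most often lowest or highest. It was the lowest array for 22 of 30 interferon and antigen presentation genes and for 13 of 16 glycolysis genes, beside 5985 of all 19938 genes. It was the highest array for 90 of 125 channel genes and for 99 of 147 non-neuronal markers, beside 49.3% of all genes. Among smaller lists it was the highest for 15 of 18 epithelial, 15 of 20 muscle, 14 of 19 immune and 14 of 19 retinoid genes, and for 28 of 37 HOX genes. Levels of many of these genes lie near the reference, which was itself 7.29 on replicate 3 against 7.13 and 7.15. Replicate 3 was the highest array for 43.1% of genes above the reference, and so for more than 49.3% of genes not above it. The share over all genes is therefore not a share over genes of like level. In a pair of lists chosen after the levels were seen, replicate 3 was lowest for 12 of 17 sterol and fatty acid synthesis genes and for all 7 mu-class glutathione transferase genes, which had a median SD of 0.67. Gstm1 measured 10.48, 11.09 and 9.37. Probe sets of the latter family may share transcripts, so the 7 are not independent. The part that culture, extraction or hybridisation plays in any of these spreads was not tested.

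**Figure D5:**
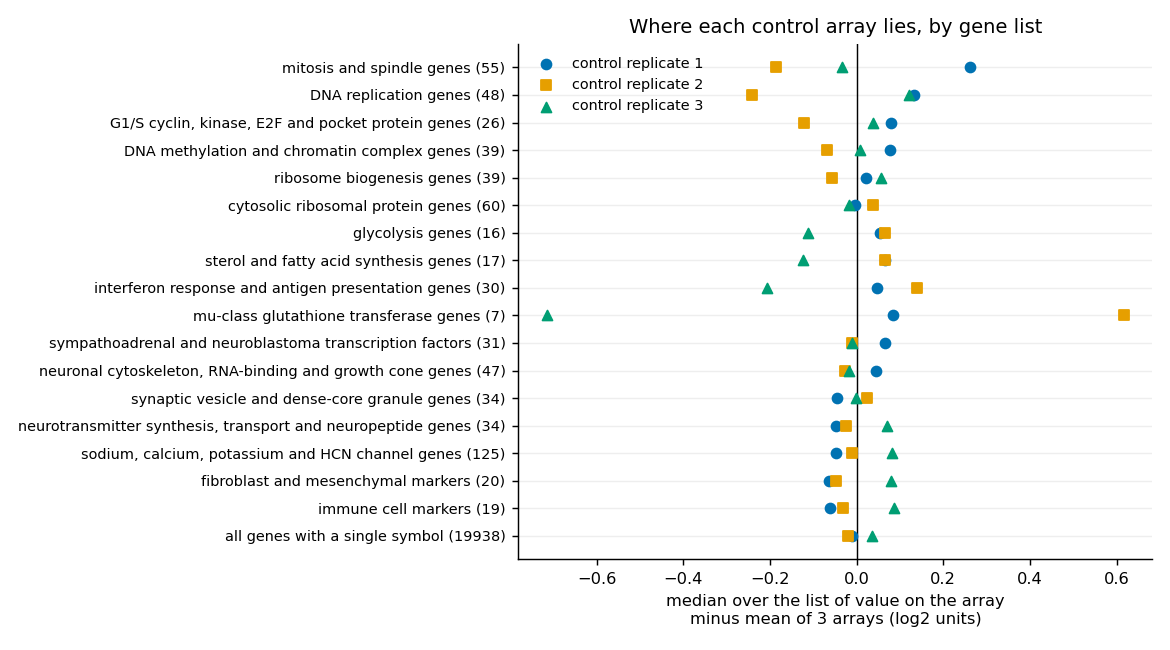
Where each control array lies by gene list. The horizontal axis is the median over the list of the value on an array minus the mean of the 3 arrays, in log2 units, with symbols for replicates 1, 2 and 3 and the number of genes in brackets. Mitosis genes separate replicate 1 (0.26) from replicate 2 (-0.19), and mu-class glutathione transferase genes separate replicate 2 (0.62) from replicate 3 (-0.71). The list medians of lineage factor, cytoskeleton and vesicle genes are at most 0.07 in size on each array. Single genes of these lists varied more, such as Nsg1 with an SD of 0.47. The sterol and glutathione transferase lists were chosen after the levels were seen.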

How the data were processed

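Expression was measured in 3 control samples on Affymetrix Mouse Gene 1.0 ST arrays. The authors background corrected and quantile normalised the arrays and summarised gene-level probe sets by RMA, and the deposited values are log2 intensities. The sources used here give neither the versions of these tools nor the set of arrays normalised at once. Of 35556 rows, GEO's platform table gave 21789 a single gene symbol, 1621 several and 12146 none, and only the first were used. Symbols were checked against RefSeq (GRCm38.p6), which changed 0. The probe set of highest mean stood for each of 19938 genes, and means and SDs were taken in Python 3.11.15 with pandas 2.3.3. Genes were named as the 20 highest in level and in SD. In each list they were named from the 5 highest, 3 lowest and 3 largest SDs. The measured lineage factors, POU genes and some members with a described role, among them markers of other cell types, were also named. The 33 lists and the members named were chosen with earlier results of these data known, and 6 lists and TGATGNAA after levels were seen. Promoter windows are the first that RefSeq lists for a gene. Signal over background and the number of arrays limit precision. The calculation of levels and SDs was tried on simulated arrays with independent noise for each gene. Such arrays hold no shift shared by many genes of a replicate, so they say nothing on the spreads seen here. Alternatives were other references, probe set rules, centring and leaving out each array.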

Additional observations from a re-analysis of the deposited data

How the results depend on the processing

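The number of genes above the reference stayed within 1.5 times its value under every alternative run, from 10042 to 16120. The non-neuronal count of 71 was 33 with the 99th percentile of olfactory receptor genes and 125 with vomeronasal receptor genes as the reference. With 1 log2 unit above the reference, an alternative chosen after seeing the data, it was 23 and the neuronal count fell from 278 to 180. Neuroblastoma and proliferation counts moved by less than 1.5 times under every alternative run, and leaving out each replicate gave 13260 to 13336 genes above the reference. The median SD over all genes, 0.112, was 0.0674 without replicate 3, and the range on leaving out each replicate was 0.0674 to 0.107. The median level of ribosomal protein genes was 11.24 over genes with a single probe set. The cause of these shifts was not tested, except that a stricter or looser reference changes the counts by construction. Levels near the reference cannot be told from background. No paired analysis was possible because only 1 group was described.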

Other observations

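Gene families outside the lists above were looked at after the levels were seen, and their values are given without a test. Of 37 HOX cluster genes, which mark position along the body axis, 15 were above the reference and 5 by over 1 log2 unit, beside 66.0% and 50.4% of all genes. Hoxc10 measured 10.47, 10.30 and 10.08 on control replicates 1, 2 and 3 and Hoxc9 was at 9.99 ± 0.11 (SD, n = 3), followed by Hoxc6 (8.54), Hoxb3 (8.54) and Hoxb1 (8.44), while their neighbour Hoxc11 was at 6.41. Of 16 imprinted genes, which are used from the copy of a single parent, 11 (68.75%) were above the reference, beside 66.0% of all genes. Mest (13.62), Peg10 (12.88), Sgce (12.33), Peg3 (12.15) and Impact (12.07) were in the top 10% of all genes, whereas Igf2r (7.34), Grb10 (6.94), Ndn (6.93), Plagl1 (6.89) and Zim1 (6.75) were not above the reference.

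Xist, the RNA that coats the inactive X chromosome, measured 12.46, 12.46 and 12.48 in these N2A cells, and the Y-linked genes Kdm5d, Uty and Eif2s3y were at 6.37, 4.98 and 4.36, each below the reference. Of sterol and fatty acid synthesis genes, 16 of 17 were above the reference and 15 in the top 10%. Scd2, a fatty acid desaturase, was at 14.04 ± 0.07, whereas its relative Scd1 was at 7.58 ± 0.54 and not above the reference.

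The 999 genes with several probe sets had a median range of 0.80 log2 units between them, and the range exceeded 1 unit for 432 (43.2%). Top2a was at 12.13 on the probe set used and 6.67 on the other, and Unc13a at 11.66, 9.95 and 8.19.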
